A study of Mus musculus with 11 samples.

Results

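Carboxylesterases are serine hydrolases of the endoplasmic reticulum and secretory pathway that cleave the ester bonds of neutral lipids, drugs and prodrugs, and the liver is one of their main sites. In rodents the genes have multiplied into tandem arrays, so that the mouse carries many Ces1, Ces2 and Ces3 genes. Several of their products act on triacylglycerol or diacylglycerol in hepatocytes, and so bear on how much fat is stored, oxidised or secreted in very-low-density lipoprotein (VLDL). The 10 genes described here are Ces1b, Ces1c, Ces1d, Ces1e, Ces1f, Ces1g, Ces2a, Ces2c, Ces2e and Ces3a, found by symbol among the 36788 genes of the expression table. The members were chosen by symbol, with their CPM levels and their FSH-to-saline fold changes in these same livers already known, so those levels and differences are given as a description. No p is printed for them, and the counts of members past a threshold of the fit over all genes are given beside the share of all genes, with nothing read from them.

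RNA was sequenced from whole livers of female WT C57BL/6 mice older than 12 weeks. All animals had been ovariectomized (OVX), which removes the ovarian source of sex steroids, and fed a high-fat diet, so that neither an intact nor a chow-fed group stood beside them. Follicle-stimulating hormone (FSH), the pituitary hormone that acts on the ovary, was given to 5 of these mice (replicates 1, 2, 3, 4 and 6), and saline to 6 (replicates 1 to 6). The comparison asks which liver transcripts differ when FSH is given and the ovaries are absent. Libraries held 10801891 to 19909327 reads on genes, and values are counts per 1000000 of those reads (CPM).

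All 8 hepatocyte markers were present, with a summed level of 111000 to 129000 CPM in FSH livers and 106300 to 130400 CPM in saline livers. Of these, Fgb, a fibrinogen chain, passed the adjusted p in the FSH comparison. Summed levels of the 5 Kupffer cell markers were 91.92 to 249.1 CPM with FSH and 149.4 to 299.4 CPM with saline, and none passed. None of the 5 stellate, 5 endothelial or 5 erythroid markers passed either, and of the 5 cholangiocyte markers only Krt7 did, with sums of 47.65 to 69.43 CPM against 38.26 to 55.7 CPM. Adipocyte markers summed to at most 0.5247 CPM in any liver, with Lep and Retn at 0 throughout, and pancreatic acinar markers to at most 0.1749 CPM. Cdx2, which defines intestinal epithelium, was at 0, and of the 3 intestinal list genes that could be tested the apolipoprotein gene Apoa4 passed, with sums over the list of 696.3 to 1357 CPM with FSH and 1131 to 2848 CPM with saline. The part of these marker differences in the results below was not tested. In whole liver, fewer cells of a type and less RNA per cell cannot be told apart.

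The genes lie in 2 arrays on chromosome 8 (GRCm38). In the first, 8 Ces1 genes lie within 359.5 kb on the minus strand, and 6 of the 10 genes described here are among them. The second holds 11 genes, Ces2a to Ces4a, within 416.1 kb on the plus strand. Ces1b spans chr8:93056728-93080017 and Ces1c chr8:93099015-93131283, next to each other. Farther along, Ces1d spans chr8:93166068-93197838, Ces1e chr8:93201218-93229619, Ces1f chr8:93256236-93279747 and Ces1g chr8:93302369-93337308. In the other array, Ces2a spans chr8:104734003-104741634, Ces2c chr8:104847068-104854483, Ces2e chr8:104926260-104934672 and Ces3a chr8:105048601-105058413. Exons of Ces3a overlap the predicted antisense gene Gm45724, and use of strand in the counting is not given in the sources used here.

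Coding sequences were 72.0% to 88.7% identical within the Ces1 group (15 pairs), 82.4% to 83.6% within the Ces2 group (3 pairs) and 55.9% to 60.4% between groups (27 pairs). Among the 10 genes the closest pair was Ces1b and Ces1c, at 88.7%. With relatives outside the 10, Ces3a was 95.3% identical to Ces3b and Ces2c was 91.3% identical to Ces2b. Promoter windows from RefSeq (GRCm38.p6) were used for 7 of the 10 genes, and those of Ces1d, Ces1f and Ces3a were not analysed here. Aligned over their whole 250 bases, the 21 pairs of windows were 43.0% to 64.6% identical, and Ces1b and Ces1c were near the low end at 43.1%, with starts that are offset from each other. A local alignment found a stretch that the pair shares. The segments that follow, 5′ to 3′, are shown because they belong to this closest pair, whose log2 fold changes had opposite signs. The Ces1b segment ends at the base before its upstream start. In Ces1c, 87 bases lie between the end of the segment and the start. Capitals mark bases that differ or have no partner in the other sequence.
Ces1b, chr8:93080018-93080161, minus strand: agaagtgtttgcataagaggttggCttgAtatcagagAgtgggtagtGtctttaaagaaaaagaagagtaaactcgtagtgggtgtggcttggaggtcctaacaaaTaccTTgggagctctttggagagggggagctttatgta
Ces1c, chr8:93131371-93131530, minus strand: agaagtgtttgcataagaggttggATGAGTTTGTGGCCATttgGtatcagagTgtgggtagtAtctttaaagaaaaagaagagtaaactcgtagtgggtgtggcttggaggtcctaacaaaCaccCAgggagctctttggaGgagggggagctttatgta
Over the 160 columns of this best local alignment, 137 were identical (85.6%). There were 7 mismatches and 2 gaps that took up 16 columns, and the longest identical run was 58 bases.

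Windows of 250 bases upstream of each RefSeq start were searched on both strands for the D-box TTATGTAA, the letters bound by PAR bZIP factors such as DBP, for the E-box CACGTG, for the nuclear receptor half-site AGGTCA, and for the half-site AGAACA of the glucocorticoid receptor. None of these strings contains another. The D-box letters stood upstream of at least 1 RefSeq start in 4 of the 7 genes and in 0.977% of all 27025 genes with such windows (0.819% of 32851 windows). All 4 are Ces1 paralogs of the same array, and no Ces2 gene with a window had the letters. Paralogs can share sequence by descent, so the 4 matches are not independent of each other. In the stretches below, printed to show how the 4 matches sit in their surroundings, the box is in capitals.
Ces1b, chr8:93080006-93080035, minus strand: gagggggagctTTATGTAAttatgctaatt
Ces1c, chr8:93131359-93131388, minus strand: gagggggagctTTATGTAAttatgctaatt
Ces1e, chr8:93229682-93229711, minus strand: ctgagagatatTTATGTAAgaagttgtttg
Ces1g, chr8:93337423-93337452, minus strand: ggggagaaacaTTATGTAAgatgttccttg
The stretch is the same in Ces1b and Ces1c. It begins 94 bases before the start in Ces1c, 81 bases before it in Ces1e and 232 bases before it in Ces1g, counted from the first letter of the box. The RefSeq start of Ces1g lies 99 bases inside the gene span given above. In Ces1b it begins 84 bases before a second RefSeq start that lies 77 bases downstream of the upstream start. No CACGTG was in a window of these genes (6.02% of all windows), AGGTCA was in that of Ces2a (14.0%) and AGAACA in that of Ces2c (16.1%). A match is a run of letters only, and the log2 fold changes of these 4 genes had both signs.

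Among the 10 transcripts, Ces1b stood farthest apart between the groups. The gene encodes a little-characterised member of the Ces1 group. Its level was 182.5, 149.9, 257.7, 231.9 and 300.0 CPM in FSH replicates 1, 2, 3, 4 and 6, and 61.04 to 99.98 CPM (median 75.38) in saline livers. Each FSH liver lay above each saline liver. The means were 224.4 ± 59.53 CPM (SD, n = 5) and 76.92 ± 13.06 CPM (SD, n = 6), a ratio of 2.92, and the log2 fold change on the log2(CPM + 0.5) scale was 1.51 (SE 0.16).

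Its neighbour Ces1c, which encodes a secreted esterase of plasma, was the most abundant of the genes. The level was 3289, 2952, 3502, 3369 and 4118 CPM with FSH and 3892 to 4388 CPM (median 4149) with saline. All FSH livers but replicate 6 lay below the saline range, and the log2 fold change was −0.27 (SE 0.10). The ratio of Ces1b to Ces1c was 0.0508 to 0.0736 in FSH livers and 0.0148 to 0.0256 in saline livers, with no overlap.

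Ces1d encodes the microsomal triacylglycerol hydrolase that mobilises stored fat for VLDL. Its level was 1395, 1576, 1615, 1558 and 1850 CPM with FSH and 1428 to 2229 CPM (median 1761) with saline. The ranges overlapped over most of their length, and the log2 fold change was −0.15 (SE 0.11), or −0.08 without saline replicate 6. Ces1e, or egasyn, which also holds β-glucuronidase in the endoplasmic reticulum, was at 159.9, 206.2, 222.4, 196.3 and 231.9 CPM with FSH and 164.1 to 260.6 CPM (median 216.9) with saline. Its ranges overlapped as well, with a log2 fold change of −0.09 (SE 0.12). Without FSH replicate 1 it was 0.00, without saline replicate 1 −0.03, without FSH replicate 6 −0.14 and without saline replicate 5 −0.16.

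Ces1f and Ces1g, whose genes are next to each other in the array, lay on opposite sides. Ces1f encodes a hydrolase related to that of Ces1d. It was at 482.7, 562.7, 514.8, 448.6 and 543.2 CPM with FSH and at 340.2 to 409.3 CPM (median 362.2) with saline, each FSH liver higher, with a log2 fold change of 0.45 (SE 0.09). Ces1g, or esterase-x, acts on lipid storage and on insulin sensitivity. It was at 193.2, 202.3, 243.2, 268.0 and 255.3 CPM with FSH and at 346.4 to 471.2 CPM (median 389.1) with saline, each FSH liver lower, with a log2 fold change of −0.76 (SE 0.11). Within a liver the ratio of Ces1f to Ces1g was 1.67 to 2.78 with FSH and 0.869 to 1.07 with saline.

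**Figure D1:**
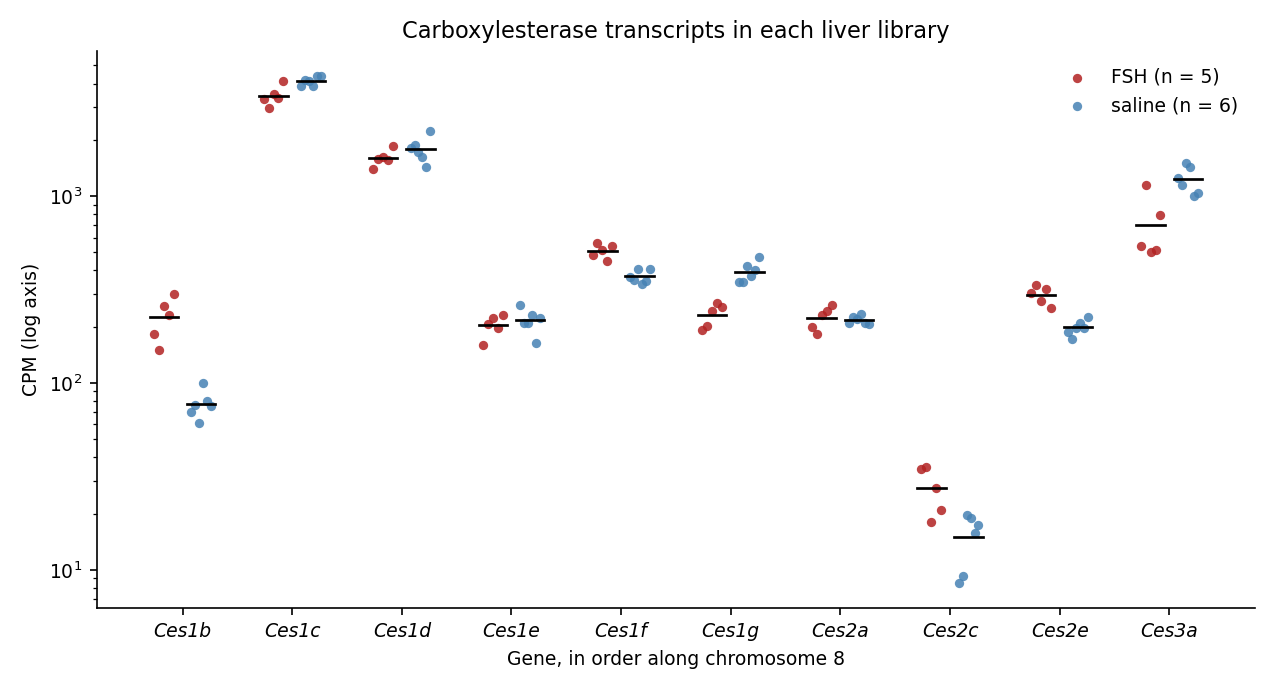
Level of each carboxylesterase transcript (CPM, log axis) in the 5 FSH livers (red) and the 6 saline livers (blue), with genes in order along chromosome 8. Each point is 1 library and each black line a group mean; the groups do not overlap for Ces1b, Ces1f and Ces2e, higher with FSH, and for Ces1g, lower with FSH.

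The Ces2 genes encode hydrolases of the endoplasmic reticulum with activity on diacylglycerol, triacylglycerol and, for Ces2c, acylcarnitine. Ces2a was at 200.1, 182.8, 231.3, 243.0 and 260.8 CPM with FSH and 207.7 to 235.3 CPM (median 215.4) with saline. FSH livers lay on either side of the narrow saline range, with 2 below it and 2 above it, and the log2 fold change was 0.03 (SE 0.09), with values from −0.03, without FSH replicate 6, to 0.10, without FSH replicate 2. Ces2e was at 301.1, 334.9, 274.4, 319.7 and 252.0 CPM with FSH and 172.2 to 225.2 CPM (median 196.6) with saline. The groups did not overlap, and the log2 fold change was 0.58 (SE 0.09).

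Ces2c was the least abundant of the 10 transcripts, with 103 to 693 reads per library. Its level was 34.81, 35.7, 18.01, 27.51 and 20.95 CPM with FSH and 8.551 to 19.67 CPM (median 16.56) with saline. All FSH livers but replicate 3 lay above the saline range, and the log2 fold change was 0.88 (SE 0.24), the widest error among the 10 genes. It was between 0.74, without saline replicate 1, and 1.01, without FSH replicate 3.

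Ces3a, also called esterase 31, was the third most abundant by mean CPM in saline livers. Its level was 539.4, 1149, 499.7, 513.6 and 787.9 CPM with FSH and 1004 to 1508 CPM (median 1195) with saline. FSH replicate 2 lay inside the saline range and the other 4 FSH livers below it. The log2 fold change was −0.88 (SE 0.20), and −1.08 without FSH replicate 2.

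Across the arrays, 5 of the 10 log2 fold changes were above 0 and 5 below, with a median of −0.03 beside 0.024 over all 12733 genes tested. Their median absolute size was 0.51, beside 0.16 over all genes. A gene was called where limma's adjusted p was under 0.05 and the absolute log2 fold change over 1. Ces1b alone of the 10 genes met both, where 1.83% of all tested genes did (0.887% higher and 0.942% lower with FSH). Past the adjusted p alone were 6 genes, where 10.6% of all tested genes were. These were Ces1b, Ces1f, Ces2c and Ces2e on the higher side (6.19% of all genes) and Ces1g and Ces3a on the lower side (4.41% of all genes). Ces2c was no longer among them in 7 of 21 alternatives, which were no filter on low values, the replicate number as a block, and the fits without FSH replicate 1, 2 or 4 or saline replicate 1 or 2, and Ces1c joined them without FSH replicate 6. Both thresholds were also met by Ces3a without FSH replicate 2 and by Ces2c without FSH replicate 3. edgeR on the recovered reads called 1 of the 10 genes by both thresholds (2.44% of all genes) and 6 by the adjusted p (11.3% of all genes), and at limma's unadjusted p under 0.05 there were 7 (25.1% of all genes). The groups did not overlap for 4 genes, 3 higher and 1 lower with FSH, against 6.67% of all tested genes (3.95% higher and 2.72% lower). All 10 genes passed the filter on low values, and because they were chosen with this comparison in view nothing is read from these shares.

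**Figure D2:**
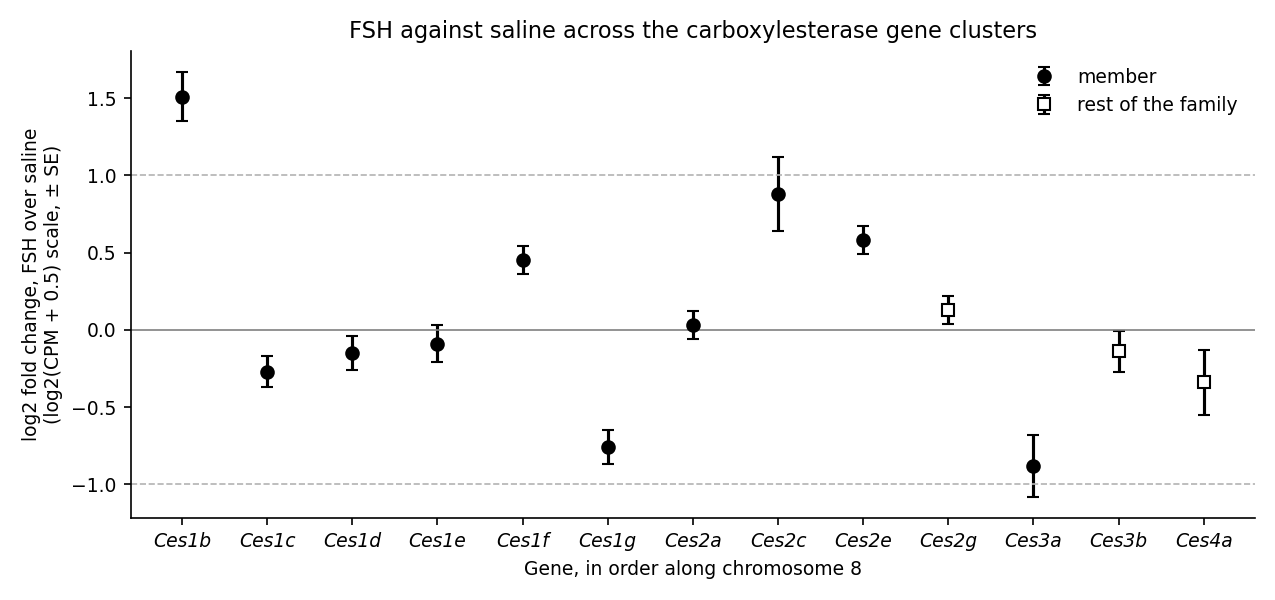
Log2 fold change of FSH over saline (log2(CPM + 0.5) scale) for the 10 genes (filled circles) and the 3 other family members that could be tested (open squares), in order along chromosome 8. Bars are the SE from limma, dashed lines mark a 2-fold difference in either direction, and neighbours such as Ces1b and Ces1c or Ces1f and Ces1g sit apart from each other.

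Taken as 1 pool, the 10 transcripts made up 0.678% to 0.862% of all reads on genes in FSH livers and 0.824% to 0.926% in saline livers. Their CPM values summed to 7461 ± 691.5 (SD, n = 5) in FSH livers and to 8644 ± 371.5 (SD, n = 6) in saline livers. FSH replicate 6, at 8620 CPM, lay inside the saline range of 8242 to 9265 CPM and the other 4 lay below it. Ces1c was 40.2% to 48.5% of the pool with FSH and 46.0% to 53.2% with saline, and Ces1d 20.6% to 21.9% and 17.3% to 24.1%. The share of Ces1b was 2.04% to 3.49% with FSH and 0.688% to 1.18% with saline. Ces1f held 6.25% to 7.65% and 4.01% to 4.61%, Ces2e 2.92% to 4.56% and 2.00% to 2.48%, and Ces1g 2.75% to 3.73% and 4.05% to 5.09%, each without overlap. Ces3a held 6.77% to 9.14% in 4 FSH livers and 15.6% in FSH replicate 2, against 11.2% to 17.0% with saline.

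**Figure D3:**
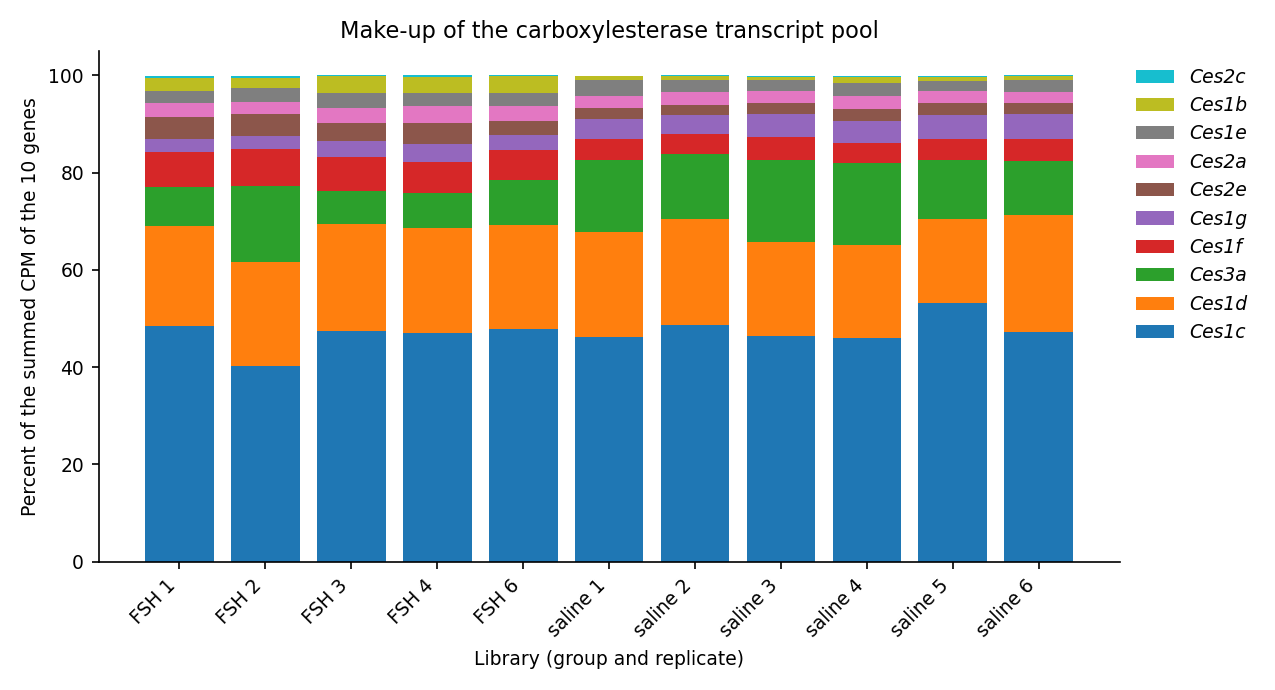
Share of each gene (percent of the summed CPM of the 10 genes) in every library, stacked from 0 to 100. Ces1c and Ces1d make up most of each bar, the Ces3a band is narrower in the FSH livers other than replicate 2, and the thin Ces1b band takes 2.04% to 3.49% with FSH and 0.688% to 1.18% with saline.

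Levels were set side by side across genes as CPM per kb of exon. In saline livers the order of the means was Ces1c (1780 CPM per kb), Ces1d (752), Ces3a (468), Ces1g (165), Ces1f (113), Ces1e (98.9), Ces2a (92.4), Ces2e (73.4), Ces1b (39.2) and Ces2c (6.49). The levels were known when the genes were chosen and the order comes from the same livers, so it is a description. Of 9 neighbouring pairs, 7 stood in this order in each of the 6 livers. Ces1f was above Ces1e in 4 of 6 livers and Ces1e above Ces2a in 5 of 6, so that the ranges of these neighbours overlapped. With the longest transcript in place of all exons, Ces1f came above Ces1g and Ces2a above Ces1e, and Ces1f (177 to 213 CPM per kb) no longer overlapped Ces1e (79.2 to 126).

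In FSH livers the order of the means was Ces1c (1480 CPM per kb), Ces1d (675), Ces3a (266), Ces1f (155), Ces1b (114), Ces2e (110), Ces1g (97.3), Ces2a (94.8), Ces1e (92.9) and Ces2c (11.9). Ces1c, Ces1d, Ces3a and Ces2c held the same rank in both groups, and Ces1b was in place 9 with saline and in place 5 with FSH. From Ces1b to Ces1e no neighbouring pair kept its order in all 5 livers. The other 5 neighbouring pairs did.

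**Figure D4:**
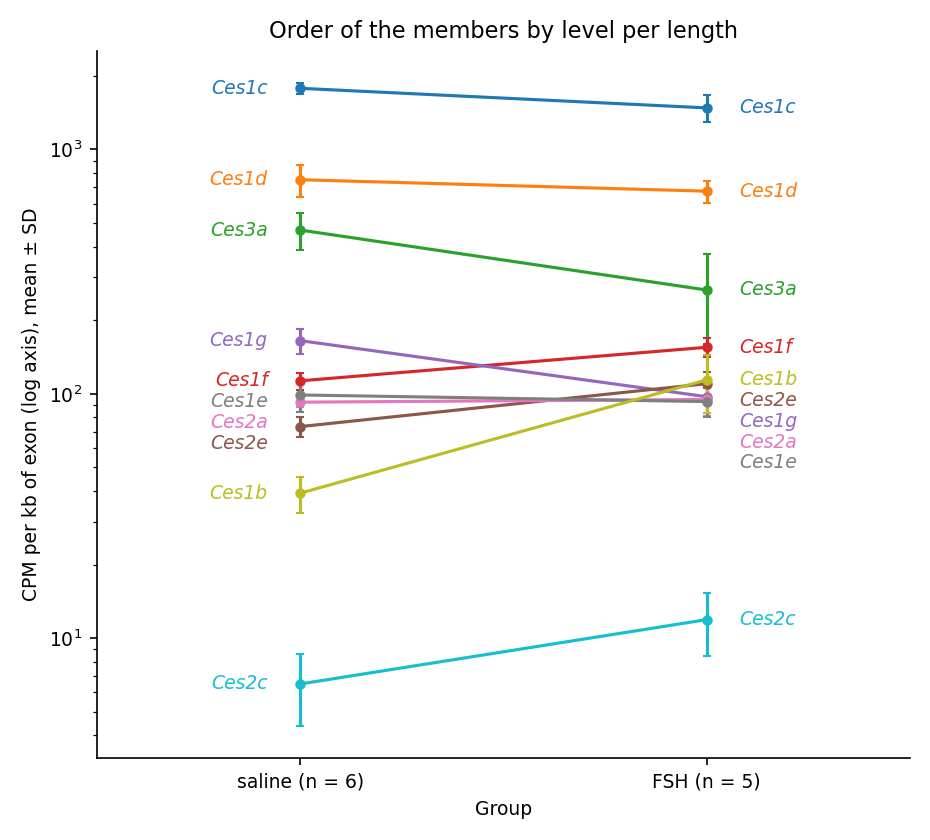
Mean level per length (CPM per kb of exon, log axis) with SD in saline livers (left, n = 6) and FSH livers (right, n = 5), 1 line per gene, with gene names spaced apart where means lie close. The Ces1b line runs from 39.2 to 114 and the Ces1g line from 165 to 97.3 CPM per kb, into the band between 92.9 and 114 that also holds Ces2e, Ces2a and Ces1e.

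Because the genes are paralogs, the share of sequence in which a read could not be told apart was measured on the longest coding transcript of each gene. Libraries were read as pairs of 100 bases. For Ces1b, 1.29% of 100-base windows also stood in another gene, always Ces1c, and 1.39% of Ces1c windows stood in Ces1b. Ces1d, Ces1e, Ces1f, Ces1g and Ces2e shared no such window. The share was 10.7% for Ces2a, all with the predicted gene Gm7208, and 9.09% for Ces3a, all with Ces3b. It was 16.0% for Ces2c, of which most (15.7% of windows) was shared with the pseudogene Ces2d-ps. With 50-base windows the shares were 11.6% for Ces1b, 17.0% for Ces1c, 22.2% for Ces2a, 42.2% for Ces2c, 30.9% for Ces3a and at most 3.36% for the others. How reads that fit several genes were treated is not given in the sources used here, so Ces2a, Ces2c and Ces3a are the less certain of these values. Ces2d-ps was at 0 to 1.312 CPM in all livers, and Ces3b is described next.

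**Figure D5:**
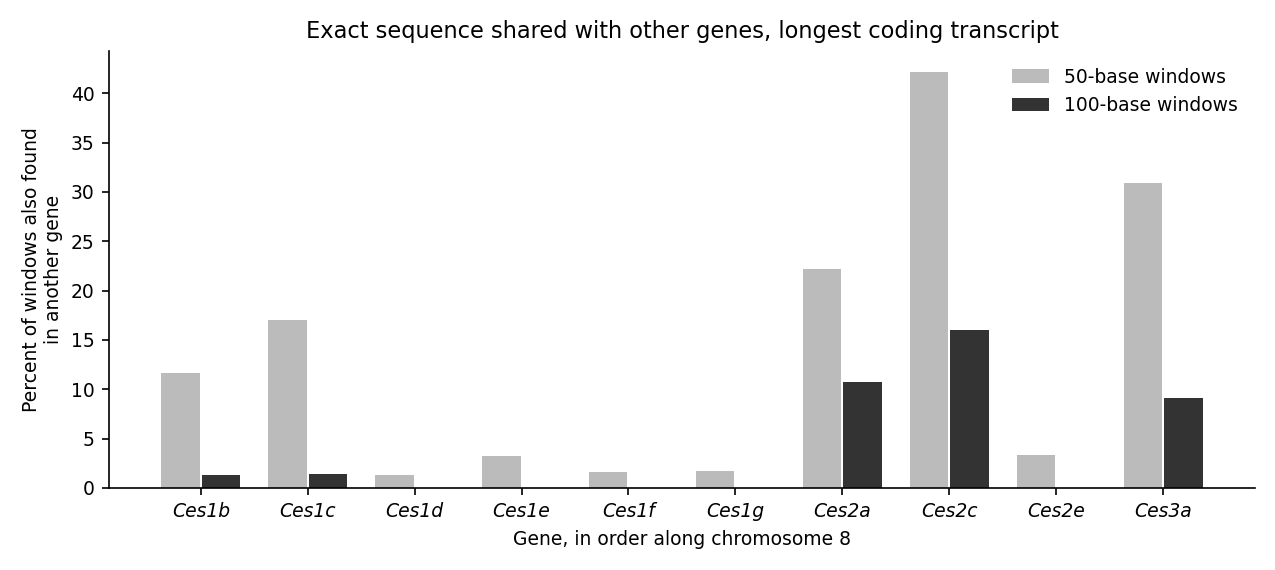
Percent of windows of 50 (grey) and 100 (black) bases in the longest coding transcript of each gene that also occur in a transcript of another gene, on either strand. Ces2c, Ces3a and Ces2a share most, at 16.0%, 9.09% and 10.7% of 100-base windows, and Ces1d to Ces1g and Ces2e share none of that length.

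Of the other 10 family members, 3 were expressed highly enough to test in the FSH comparison, and none passed the adjusted p with limma or edgeR, nor an unadjusted p under 0.05 (0 of 3, beside 10.6%, 11.3% and 25.1% of all genes, so that few or no calls among 3 genes are no result about them). Ces2g was at 56.0 to 72.5 CPM with FSH and 49.0 to 65.5 CPM with saline (log2 fold change 0.13, SE 0.09, adjusted p = 0.418 with limma). The fold change was 0.08 without FSH replicate 2 or without saline replicate 4. Ces3b, the paralog next to Ces3a, was at 217.6 to 295.9 CPM with FSH and 254.5 to 413.2 CPM with saline (log2 fold change −0.14, SE 0.13, adjusted p = 0.538 with limma). It was −0.04 without saline replicate 4, the highest saline liver, and −0.07 without FSH replicate 3. Ces4a, at 0.2623 to 1.12 CPM in all livers, had a log2 fold change of −0.34 (SE 0.21, adjusted p = 0.341 with limma), and over the alternatives it ranged from −0.23 with a pseudocount of 1 CPM to −0.77 with edgeR. Exact permutation tests over the 462 splits of the livers gave p = 0.162 for Ces2g, 0.394 for Ces3b and 0.113 for Ces4a. Ces1h, Ces2f and Ces5a had no read in any liver, which allows up to 0.151 to 0.278 CPM per library (3 reads, counting error only), and Ces1a, Ces2b, Ces2h and Ces2d-ps lay under the filter.

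Set against these relatives, the ratio of Ces2e to Ces2g was 4.50 to 4.78 in FSH livers and 2.97 to 4.29 in saline livers, with no overlap. The ratio of Ces3a to Ces3b was 1.74 to 4.01 with FSH and 3.47 to 5.70 with saline, and overlapped.

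The other esterases and neutral lipid lipases of the liver, which share substrates with the carboxylesterases, were followed as a list of 24 genes, of which 23 could be tested. None passed both thresholds with limma or edgeR, and 8 of 23 were at an unadjusted p under 0.05 (25.1% of all genes). At limma's adjusted p, 3 rose and 1 fell (17.4% of the list, beside 10.6% of all genes), and the median log2 fold change was 0.07 beside 0.024 over all genes. Nceh1, a neutral cholesterol ester hydrolase, was at 36.21, 40.86, 34.77, 35.59 and 31.20 CPM with FSH and 16.76 to 23.57 CPM with saline (log2 fold change 0.71, SE 0.10, adjusted p = 0.00054 with limma). The groups did not overlap. Abhd5, the co-activator of adipose triglyceride lipase, was at 44.20, 34.81, 38.29, 29.45 and 25.41 CPM with FSH and 20.95 to 26.12 CPM with saline, and rose by 0.55 (SE 0.13, adjusted p = 0.012 with limma). The other 2 were G0s2, an inhibitor of that lipase, which rose, and the hepatic lipase gene Lipc, which fell. Pnpla3, a lipid droplet protein, had the largest log2 fold change of the list, 1.67, with an SE of 0.58 and an adjusted p of 0.079 with limma. It passed both thresholds with the replicate number as a block, without FSH replicate 6 and without saline replicate 1 or 2.

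VLDL assembly and lipid esterification, in which Ces1d takes part, were covered by 12 genes, all tested. None passed both thresholds with limma or edgeR, 2 passed the adjusted p (16.7%, beside 10.6% of all genes) and 3 of 12 were at an unadjusted p under 0.05 (25.1% of all genes). Sar1b, a GTPase of vesicles that leave the endoplasmic reticulum, was at 302.4 to 402.6 CPM with FSH and 224.2 to 286.5 CPM with saline, and rose by 0.48 (SE 0.10, adjusted p = 0.0051 with limma). Pla2g12b, needed for lipidation of VLDL, was at 39.72 to 46.10 CPM with FSH and 47.31 to 57.31 CPM with saline, and fell by 0.36 on the log2 scale (SE 0.08, adjusted p = 0.010 with limma). Neither pair of ranges overlapped, as for 6.67% of all genes.

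Among 12 nuclear receptors and partners known to act on liver esterase and lipid genes, Nr0b2 passed both thresholds (1.83% of all genes), and 2 genes passed the adjusted p (16.7%, beside 10.6% of all genes), the same counts with edgeR. At an unadjusted p under 0.05 were 4 of 12 (25.1% of all genes). Nr0b2 encodes SHP, a receptor that represses others and is itself induced by bile acids. Its level was 54.55, 33.04, 35.23, 41.79 and 24.89 CPM with FSH and 34.52 to 160.3 CPM (median 104.1) with saline, with saline replicate 6 the low value, so that the groups overlapped. It fell by 1.32 on the log2 scale (SE 0.31, adjusted p = 0.014 with limma). Hnf4a, a receptor that maintains hepatocyte genes, fell at the adjusted p alone, by 0.44 on the log2 scale (SE 0.13, adjusted p = 0.037 with limma). No other gene of this list passed the adjusted p, among them Nr1i2 (unadjusted p = 0.0386 and adjusted p = 0.169 with limma) and Nr3c1 (unadjusted p = 0.0373 and adjusted p = 0.166 with limma).

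Within the 6 saline livers, whose mice were given no FSH, the 45 pairs of the 10 genes were compared for covariation. Pearson's r was between −0.758 and 0.792 with a median of 0.134, positive in 26 pairs and negative in 19. No pair reached an unadjusted p under 0.05 in the exact permutation test, with a smallest p of 0.0528 and a smallest adjusted p of 0.82. That smallest p belonged to Ces1b and Ces1f (r = −0.758, Spearman's rho = −0.829, exact p = 0.0583 for rho), and r was −0.33 without the 2 farthest livers.

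Over all 11 livers, the genes whose level followed that of Ces1b most closely by Pearson's r were Flot1 (0.943), Tcea3 (0.933), Rasal2 (0.930), H2afv (0.929) and Gckr (0.923). These values describe a pattern over livers that share the FSH and saline groups. The groups did not overlap for any of the 5 genes, as for 6.67% of all tested genes. The 5 were picked by likeness to Ces1b, whose own groups did not overlap, so nothing is read from this. Tcea3, a transcription elongation factor gene, was at 71.12 to 107.4 CPM with FSH and 44.59 to 57.53 CPM with saline. Gckr, whose product holds glucokinase in the nucleus, was at 122.6 to 146.9 CPM and 85.83 to 106.8 CPM. Flot1, which encodes a membrane microdomain protein, was at 35.18 to 43.73 CPM and 25.53 to 27.70 CPM.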

How the data were processed

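Liver RNA from 5 FSH and 6 saline mice was extracted after Papain digestion and made into NEBNext Ultra libraries. The submitters' processing notes list FastQC 0.11.2, cutadapt, Trim Galore 0.3.3, STAR, RSEM and build mm10, without saying how reads of several genes were treated. The authors deposited CPM values, which sum to 1000000 per library. Dividing by the value of 1 read gave whole reads for 100% of values (within 0.01 reads), 10801891 to 19909327 per library. The depth limits genes at 0 to under 3 reads.

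The 12733 genes averaging 0.5 CPM or more were fitted with limma 3.58.1 (R 4.3.3) on log2(CPM + 0.5), with trended eBayes and Benjamini-Hochberg adjustment over all of them. A call needed an adjusted p under 0.05 and a log2 fold change over 1. edgeR 4.0.16 (quasi-likelihood) on the recovered reads, an alternative chosen after seeing the data, called 311 genes (1435 by adjusted p alone). The procedures were tested on simulated data. Permutation tests were exact and two-sided. Nothing states that libraries of a group came from separate litters or days, so p-values measure the spread between these samples.

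The members, gene lists and motifs were chosen with earlier results of these data known. Named genes are the members, the rest of the family, the called genes of each pathway list, or in a list without calls the 2 of smallest p (Hnf4a, Lipc, G0s2, Pnpla3, Nr1i2 and Nr3c1 were added after their values were seen), and the 5 genes most correlated with the member of largest fold change. Identifiers were matched to symbols without version (35555 of 36788). Exon lengths, positions and transcripts are from GENCODE (GRCm38), later than the deposited identifiers, and promoters from RefSeq. Alignments used Biopython 1.88. Of 2 RefSeq starts of Ces1b, the upstream one was aligned.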

Additional observations from a re-analysis of the deposited data

Results flagged for a closer look

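In 46 sets of values (a named gene in 1 group), 3 held a library whose distance from its nearest neighbour took up an unusual part of the group's range by Dixon's test, and chance gives about 1 in 20. Ces3b was at 413.2 CPM in saline replicate 4, and at 254.5 to 305.8 CPM in the other saline livers. Nceh1 was at 16.76 CPM in saline replicate 5, against 21.67 to 23.57 CPM in the others. Pla2g12b was at 46.1 CPM in FSH replicate 6, against 39.72 to 41.45 CPM in the others. None of the 10 carboxylesterases was among them, and no cause of these 3 values was tested.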

How the results depend on the processing

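The genes were chosen with this comparison known, so how their values held over 21 alternatives is a description and no support. The sign and the side of the adjusted p did not change for Ces1b, Ces1f, Ces1g, Ces2e and Ces3a. The log2 fold change was 1.40 to 1.65 for Ces1b and −1.08 to −0.78 for Ces3a. Ces2c lost its side without a filter, with the replicate block and without FSH replicate 1, 2 or 4 or saline replicate 1 or 2. Ces1c passed without FSH replicate 6, and Ces2a changed sign in 4 alternatives (−0.03 to 0.10). The members past the adjusted p numbered 5 to 7. Calls over all genes numbered 171 to 311, and 197 to 273 when 1 library was left out. Members called numbered 1 in the alternatives that kept all libraries, and 1 with the replicate block. They numbered 1 to 2 when 1 library was left out in turn, the second being Ces3a without FSH replicate 2 and Ces2c without FSH replicate 3. In the list of esterases and lipases the count of 0 became 1 (Pnpla3) with the replicate block, and was 0 to 1 when 1 library was left out (1 without FSH replicate 6 and without saline replicate 1 or 2). Counts in the remaining lists did not change. With trimmed mean scaling, 1 pair of members covaried in saline livers at an unadjusted p under 0.05. Leaving out the 2 farthest livers gives r with no test. Ces4a has no value with the filter at 5 CPM or without saline replicate 6, where it lies under the filter.

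The replicate numbers are shared by the groups, but the deviations of libraries with the same number correlated at −0.066 to 0.356, and 1 of 5 matched its own number best, so the numbers were not used as pairs. The fit with the replicate block used only numbers found in both groups, so it also left out saline replicate 5. With it, 251 genes were called in place of 233, 1 member was called, and 5 members passed the adjusted p in place of 6. The block and the loss of that library cannot be told apart here. The lists of VLDL genes and the rest of the family stayed at 0 with the block, and that of nuclear receptors at 1.

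Read numbers were lowest for the relatives near 0, for Rasal2 (73 to 188 reads per library) and for Ces2c (103 to 693). Reads shared among paralogs were not counted separately here, and lengths from a later annotation bear on the order by level per kb.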
